A study of Mus musculus with 4 samples.

Results

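The platelet-derived growth factor (PDGF) system was followed in single-cell RNA-seq of the mouse ovary through all 6 of its ligand and receptor genes, out of 32285 genes in the count tables. The members were chosen by name: the 4 ligand genes Pdgfa, Pdgfb, Pdgfc and Pdgfd and the 2 receptor genes Pdgfra and Pdgfrb. The series holds 4 libraries of young mice (treatment schedule from postnatal day 25), 1 for each treatment, and each library pools 1 ovary from each of 5 animals taken 4 h after the last dose. The control library came from animals given PBS and saline, the doxorubicin library from animals given 2 weekly doses of 3 mg/kg of this DNA-damaging chemotherapy drug, the doxorubicin+AMH library from animals given the same doses with recombinant human anti-Müllerian hormone (AMH) at 0.75 mg/kg, and the AMH library from animals given AMH alone. With 1 pooled library per group there is no test in what follows: each comparison is between libraries, and the 95% intervals given cover counting error only, not the spread between animals or dissociations.

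PDGF ligands are secreted dimers that bind 2 receptor tyrosine kinases, which pair up and switch on the Ras-MAPK, PI3K and PLCγ pathways. PDGF-A and PDGF-C act mainly through the alpha receptor encoded by Pdgfra, PDGF-D mainly through the beta receptor encoded by Pdgfrb, and PDGF-B through both; PDGF-C and PDGF-D are secreted in a latent form that proteases such as plasmin and its activators cut. Endothelial PDGF-B is best known for recruiting pericytes, the mural cells of small vessels, through the beta receptor, while the alpha receptor marks mesenchymal cells, including the stroma from which theca cells, the androgen-making layer around the follicle, are drawn.

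Kept cells numbered 7972 in the control library, 6044 in the doxorubicin library, 6548 in the doxorubicin+AMH library and 7887 in the AMH library, at medians of 10663 to 15069 unique molecular identifiers (UMIs, each a counted transcript molecule) per cell. Between 0.588% and 0.627% of a library's cell barcodes also occurred in another library. Cells were grouped into clusters without using the 6 members, and a cluster was given a class name such as "stroma-like" from marker genes. Oviduct epithelial-like cells numbered 125, 1, 46 and 215 in the control, doxorubicin, doxorubicin+AMH and AMH libraries. The doxorubicin library also held 177 of the 178 cells of an unnamed cluster and 77 of the 81 cells of a granulosa-like cluster led by Amh. Whether this bears on values that stand apart in that library was not tested. Levels are UMIs per 1000000 UMIs (CPM) summed over the cells of a class in a library. The assay reads 3′ ends, so CPM is not per length and levels are compared within a gene and not between genes.

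All 6 genes are protein coding in the mouse genome (build GRCm38, GENCODE M21 annotation). Pdgfra (ENSMUSG00000029231) occupies chr5:75152292-75198215 on the plus strand and Pdgfa (ENSMUSG00000025856) chr5:138976014-138997370 on the minus strand. Pdgfb (ENSMUSG00000000489) occupies chr15:79995874-80014977 on the minus strand. Pdgfc (ENSMUSG00000028019) and Pdgfd (ENSMUSG00000032006) are long genes on the plus strand, at chr3:81036416-81214040 and chr9:6168584-6378850. Counted genes annotated on the opposite strand overlap Pdgfra (Gm42802), Pdgfc (Gm16000), Pdgfa (6330403L08Rik), Pdgfb (Gm41361) and Pdgfd (Ddi1, outside its exons), and the sources used here do not say how strand entered the counting.

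The 250 bases before the RefSeq start sites of Pdgfra, Pdgfc and Pdgfd are shown because these members differed between libraries in theca-like or granulosa-like cells and their windows overlap no annotated exon. The sequences are RefSeq's (GRCm38.p6), plus strand, 5′ to 3′, at chr5:75152001-75152250, chr3:81036166-81036415 and chr9:6168236-6168485. The RefSeq starts of Pdgfra (75152251) and Pdgfd (6168486) lie upstream of the GENCODE gene starts given above. The 30 bases after the start occurred in 1 GENCODE transcript of Pdgfc and in 0 of Pdgfra and of Pdgfd. Capitals mark a match to any of 4 motifs searched on both strands, which do not overlap here: a TATA box (TATAAA), a GC box (GGGCGG), a GC-rich motif bound by SMAD proteins (GGCGCC) and a GLI motif (GACCACCCA).
Pdgfra: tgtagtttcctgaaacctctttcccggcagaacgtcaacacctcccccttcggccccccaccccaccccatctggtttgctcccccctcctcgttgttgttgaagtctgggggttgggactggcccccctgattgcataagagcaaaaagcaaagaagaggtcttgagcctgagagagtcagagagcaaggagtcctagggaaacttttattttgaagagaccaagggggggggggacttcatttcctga
Pdgfc: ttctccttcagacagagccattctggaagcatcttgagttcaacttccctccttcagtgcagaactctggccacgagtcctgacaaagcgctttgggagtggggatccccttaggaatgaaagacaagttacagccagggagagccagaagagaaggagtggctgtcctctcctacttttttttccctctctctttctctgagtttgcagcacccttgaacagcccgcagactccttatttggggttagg
Pdgfd: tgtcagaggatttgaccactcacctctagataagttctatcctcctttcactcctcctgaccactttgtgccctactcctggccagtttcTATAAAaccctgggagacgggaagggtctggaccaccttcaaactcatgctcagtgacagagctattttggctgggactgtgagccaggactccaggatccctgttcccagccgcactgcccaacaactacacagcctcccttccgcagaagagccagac
The Pdgfd window held 1 TATAAA match, and the Pdgfra and Pdgfc windows held none of the 4 motifs. Of 32851 RefSeq promoters of the same length, 12.4% held TATAAA, 32.7% GGGCGG, 9.59% GGCGCC and 0.225% GACCACCCA. The 3 windows had a GC content of 54.4% (Pdgfra), 50.8% (Pdgfc) and 53.6% (Pdgfd) with 3 or 4 CpG dinucleotides each, against medians of 52.4% and 6 over all promoters.

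Among the ligands, Pdgfa was highest in surface epithelial-like cells, the layer that covers the ovary. Its level there was 190 CPM in the control library, 195 in the doxorubicin library, 243 in the doxorubicin+AMH library and 135 in the AMH library, and the doxorubicin+AMH value rests on 38 cells. Every library's value lay above those of the next classes. Pericyte-like cells followed at 88.2 to 109 CPM, lymphatic endothelial-like cells at 49.3 to 92.8 CPM and smooth muscle-like cells at 49.2 to 65.6 CPM, and these 3 ranges overlapped from one class to the next. Pdgfa was low in theca-like cells (6.27 to 12.8 CPM), though above erythroid-like cells, which should lack it and held 1 UMI over the 4 libraries (0 to 5.43 CPM).

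Pdgfb was highest in the cells that line blood vessels. Blood endothelial-like cells held 146 CPM in the control library, 140 in the doxorubicin library, 97.5 in the doxorubicin+AMH library and 105 in the AMH library. Both libraries with AMH lay below both libraries without it. Macrophage-like cells came next, at 38.9 to 65.3 CPM, below every blood endothelial value. Stroma-like, theca-like and smooth muscle-like cells were at 0.389 to 1.13 CPM. After each cell was thinned to 2000 UMIs to remove differences in depth, 15.8% to 23.5% of blood endothelial-like cells held a Pdgfb UMI, against 0.0898% to 0.229% of stroma-like cells and none of the erythroid-like cells.

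Pdgfc was highest in smooth muscle-like cells. Smooth muscle-like cells, the contractile cells of the follicle wall and vessels, held 86.0, 64.3, 59.1 and 67.7 CPM in the control, doxorubicin, doxorubicin+AMH and AMH libraries. Granulosa-like cells, which line the follicle around the oocyte, held 77.2, 63.3, 32.5 and 38.1 CPM in the same order. Smooth muscle-like cells were above granulosa-like cells in each library, although the ranges over libraries overlapped. Macrophage-like cells held 36.5 to 51.8 CPM, a range that overlapped that of granulosa-like cells and lay below that of smooth muscle-like cells. No Pdgfc UMI was counted in erythroid-like cells of any library.

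Pdgfd was counted in vessels, follicles and surface cells alike. It was highest in blood endothelial-like cells, at 223 CPM in the control library, 247 in the doxorubicin library, 259 in the doxorubicin+AMH library and 197 in the AMH library. No other class reached the lowest of these. The ranges of lymphatic endothelial-like (86.0 to 137 CPM), theca-like (93.6 to 160 CPM), granulosa-like (90.3 to 133 CPM) and surface epithelial-like cells (46.9 to 156 CPM) overlapped from one to the next. Macrophage-like cells held 1.89 to 6.59 CPM.

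Of the receptors, Pdgfra was a stromal gene. Stroma-like cells held 299.8 CPM (95% interval 294 to 305) in the control library, 264 (258 to 270) in the doxorubicin library, 306 (299 to 312) in the doxorubicin+AMH library and 321 (314 to 329) in the AMH library. The doxorubicin library was the lowest and the AMH library the highest. By the median over libraries smooth muscle-like cells were next at 60.2 to 96.7 CPM, and theca-like cells ranged from 18.0 to 106 CPM. Theca-like cells were below smooth muscle-like cells in the control and doxorubicin libraries and above them in the doxorubicin+AMH and AMH libraries. Granulosa-like cells stayed at 3.95 to 4.65 CPM.

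The share of cells with a Pdgfra UMI separated the stroma from the background of free RNA. At 2000 UMIs per cell, 43.6%, 38.7%, 43.8% and 47.0% of stroma-like cells held a Pdgfra UMI in the control, doxorubicin, doxorubicin+AMH and AMH libraries, and at full depth 81.3% to 84.6% did (medians of 7898 to 11686 UMIs per cell). Granulosa-like cells held one in 0.858% to 1.29% of thinned cells, at full-depth medians of 16308 to 23428 UMIs. In erythroid-like cells (medians of 3928 to 6553 UMIs) 0 to 4.35% of thinned cells held one, on 8, 5, 9 and 0 UMIs per library, and their CPM reached 24.1 in the control library.

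Pdgfrb was highest in pericyte-like cells, the class whose recruitment PDGF-B is known for. Its level there was 455 CPM (420 to 493) in the control library, 380 (343 to 419) in the doxorubicin library, 354 (312 to 400.5) in the doxorubicin+AMH library and 428 (383 to 476) in the AMH library. Both doxorubicin libraries lay below both others. Stroma-like cells followed at 114, 112, 82.7 and 83.6 CPM, a range that did not overlap that of pericyte-like cells or of the classes below. Blood endothelial-like cells at 37.5 to 62.9 CPM and smooth muscle-like cells at 30.5 to 41.2 CPM overlapped each other, while theca-like and granulosa-like cells were at 1.91 to 4.57 CPM, under the 5.43 to 19.8 CPM of erythroid-like cells.

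**Figure D1:**
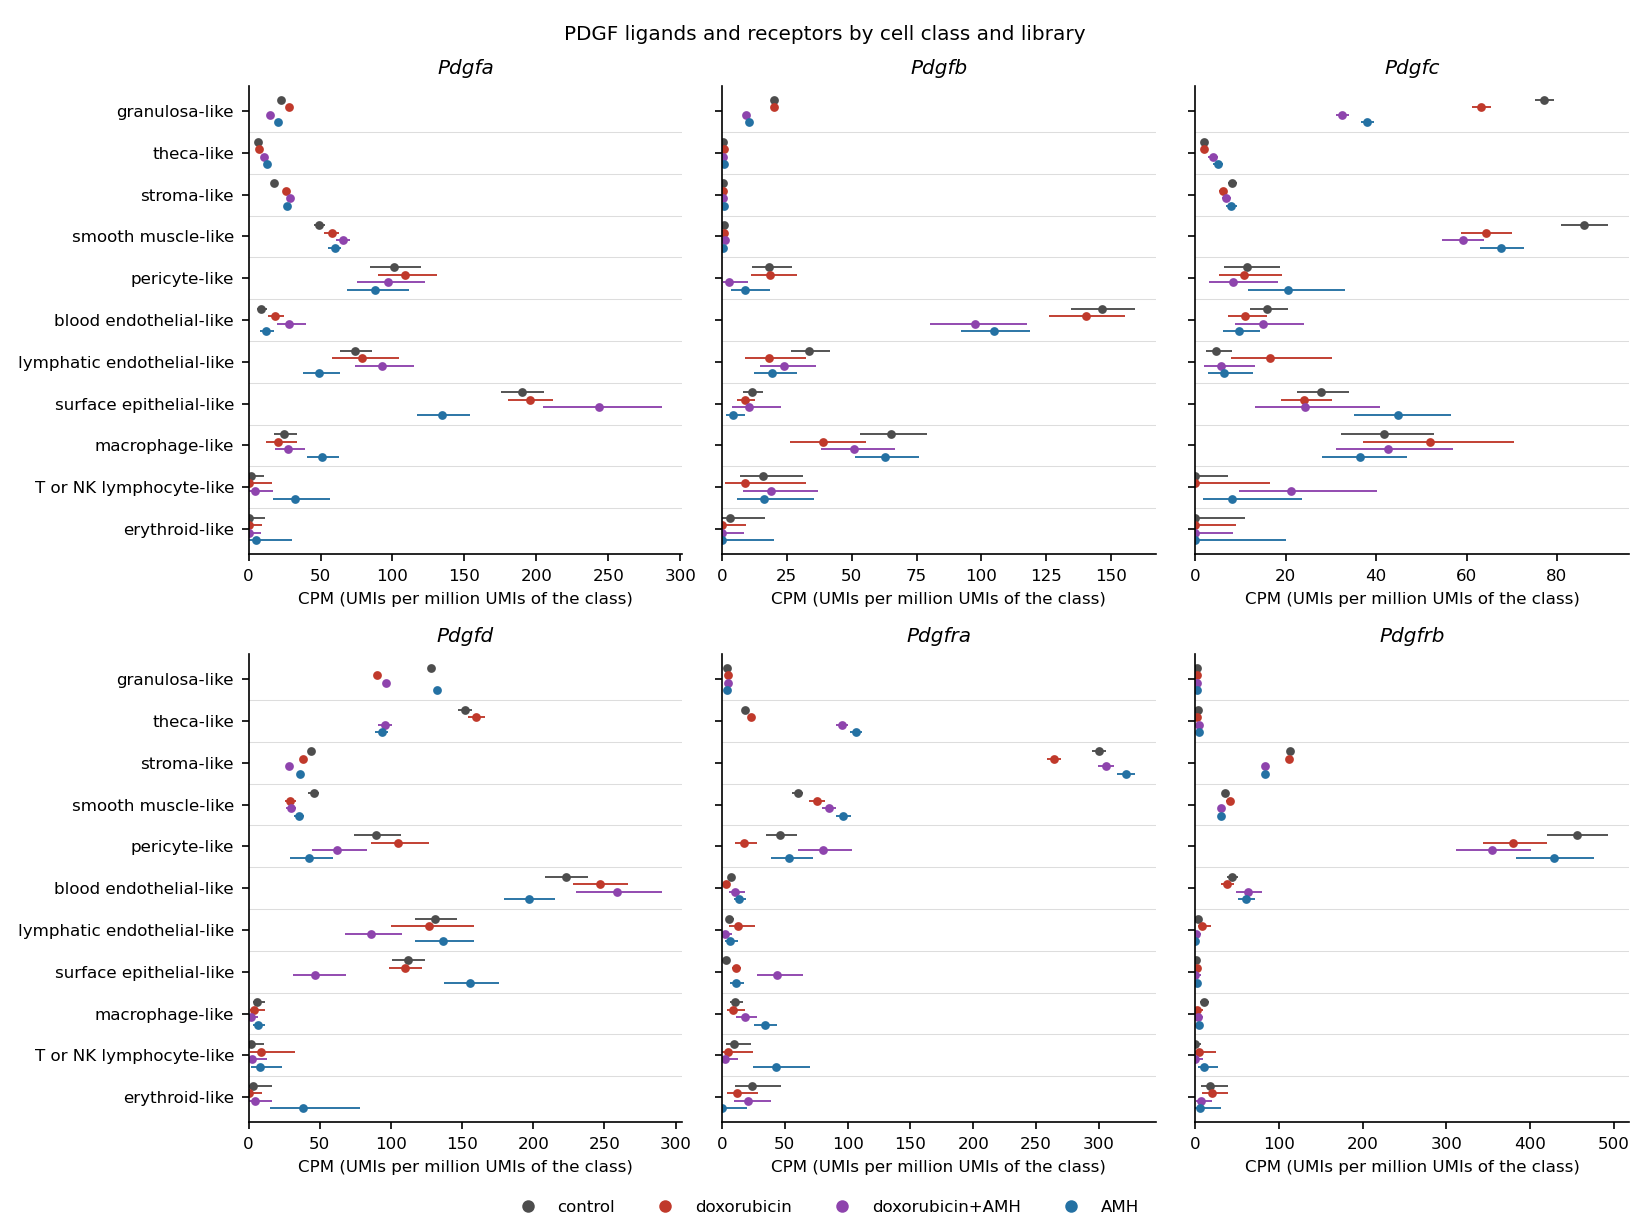
Level of each PDGF gene in 11 cell classes, as CPM of the class on a linear axis, with 1 point per library and bars for the exact Poisson 95% interval of the UMI count (counting error only). Pdgfra peaks in stroma-like cells at 264 to 321 CPM, Pdgfrb in pericyte-like cells at 354 to 455 CPM and Pdgfb in blood endothelial-like cells at 97.5 to 146 CPM.

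At 2000 UMIs per cell, the share with UMIs of both receptors was higher in stroma-like than in pericyte-like cells in every library. Of pericyte-like cells, 46.0% to 55.1% held Pdgfrb without Pdgfra and 0 to 5.13% held both. The latter were 1, 0, 1 and 4 cells in the control, doxorubicin, doxorubicin+AMH and AMH libraries. Their interval overlapped that of stroma-like cells in the doxorubicin+AMH library (0.04% to 8.53% against 5.11% to 7.15%) and in the AMH library (1.41% to 12.6% against 5.15% to 7.19%). Of stroma-like cells, 8.32%, 7.98%, 6.07% and 6.11% held both in the control, doxorubicin, doxorubicin+AMH and AMH libraries, while 30.7% to 40.9% held Pdgfra alone and 7.19% to 11.3% held Pdgfrb alone. Pdgfrb was found in 13.002% to 20.6% of stroma-like cells with a Pdgfra UMI and in 13.6% to 19.97% of those without one, so having one receptor's UMI told little about the other. In smooth muscle-like cells both were found together in 0.38% to 1.48% of cells.

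A class can be high in CPM and still contribute few transcripts, so each gene's UMIs were also divided by where they were counted. Granulosa-like cells gave most of the Pdgfb UMIs (59.9% to 70.6%), although blood endothelial-like cells had the highest level and gave 13.5% to 25.1%. Granulosa-like cells also gave 66.7% to 78.8% of Pdgfc UMIs and 48.3% to 71.1% of Pdgfd UMIs. Theca-like cells gave 23.7% and 26.9% of Pdgfd UMIs in the control and doxorubicin libraries, and 16.1% and 11.4% in the doxorubicin+AMH and AMH libraries. The stroma gave 68.0% to 86.7% of Pdgfra UMIs and 63.5% to 76.6% of Pdgfrb UMIs, and pericyte-like cells, few in number, gave 8.0% to 10.8% of Pdgfrb UMIs. These shares follow the number of cells of each class that the dissociation released as well as the level per cell.

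The genes whose profile was most like that of each member were found by Pearson correlation of log2(CPM + 5) over 28 sums (7 classes in 4 libraries) among 10500 genes. The points share libraries and depth, so the correlations are descriptions. Pdgfra was closest to Dcn (r = 0.945), which encodes the matrix protein decorin and was itself one of the stroma markers, then Matn2 (0.934) and Htra3 (0.925). Pdgfrb was closest to Cyth3 (0.973), Pde3a (0.970) and Scn7a (0.968), and Pdgfb to Stk10 (0.957), Ehd4 (0.955) and Smagp (0.947). Pdgfd was closest to the receptor phosphatase gene Ptprg (0.976), Epha4 (0.953) and Lrba (0.944). Pdgfc had the lowest best match, Pparg (0.859), followed by Camk2d (0.848) and Prune2 (0.822), and Pdgfa matched Plekhg3 (0.903), Myom1 (0.893) and Mical1 (0.890).

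Libraries were then compared within the 7 classes that held at least 50 cells in each of them. The 2 contrasts of doxorubicin (doxorubicin over control, doxorubicin+AMH over AMH) share no library, nor do the 2 contrasts of AMH (AMH over control, doxorubicin+AMH over doxorubicin), but each doxorubicin contrast shares a library with each AMH contrast. Of the 42 pairs of a member and a class, 24 had a mean of at least 20 CPM and were counted. Past a ratio of 1.5-fold, doxorubicin over control had 0 pairs higher and 3 lower, where 4.46% of all gene and class pairs above that level were past it in either direction. Doxorubicin+AMH over AMH had 0 higher and 1 lower against 6.74%, AMH over control had 4 higher and 3 lower against 8.03%, and doxorubicin+AMH over doxorubicin had 3 higher and 4 lower against 9.68%. The members were thus past the fold in 3 and 1 of 24 pairs in the doxorubicin contrasts and in 7 of 24 in each AMH contrast. Their median log2 ratios were -0.04, -0.09, -0.16 and -0.04 in the same order of contrasts.

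In granulosa-like cells, Pdgfc and Pdgfb transcripts were lower in both libraries with AMH. Pdgfc was 2.0-fold lower in the AMH library than in the control library, at a log2 ratio of -1.02 (95% interval -1.09 to -0.95), and the doxorubicin+AMH library was lower than the doxorubicin library by a log2 ratio of -0.96 (-1.04 to -0.88). Of all genes counted in granulosa-like cells, 2.13% and 2.62% were at least 1.5-fold lower in these contrasts. Pdgfb held 19.9, 19.98, 9.15 and 10.47 CPM in the control, doxorubicin, doxorubicin+AMH and AMH libraries, a mean under the 20 CPM limit, so it was not among the counted pairs and was chosen after its values were seen. Its log2 ratios were -0.93 (-1.06 to -0.80) and -1.13 (-1.27 to -0.98) in the AMH contrasts and 0.00 and -0.19 in the doxorubicin contrasts.

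The lower Pdgfb and Pdgfc levels were found within most granulosa-like clusters and not only in the class as a whole. Of 7 granulosa-like clusters with at least 50 cells in each library, the Pdgfb ratio was below 0 in 7 in AMH over control and in 7 in doxorubicin+AMH over doxorubicin, with an interval below 0 in 5 and 6. For Pdgfc the ratio was below 0 in 5 and 7 of them, with an interval below 0 in 5 and 7. The exceptions for Pdgfc in AMH over control were the clusters led by Spef2 (0.65, interval 0.07 to 1.26) and Uchl1 (22 against 1 UMIs), both of few UMIs per cell. Pdgfc in the cluster led by Cntn4, which also expresses Amh itself, was the highest of the 7 in the libraries without AMH. It held 162, 130, 69.6 and 67.3 CPM, ratios of -1.27 and -0.90 in the AMH contrasts, where 7.13% and 6.0% of its genes were at least 1.5-fold lower. In the libraries with AMH the Spef2 cluster was higher, at 80.6 (doxorubicin+AMH) and 98.5 CPM (AMH). The Cntn4 cluster made up 16.98% and 16.1% of granulosa-like cells in the control and doxorubicin libraries and 6.70% and 7.79% in the doxorubicin+AMH and AMH libraries; its part in the class ratio was not tested beyond the values within clusters.

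**Figure D2:**
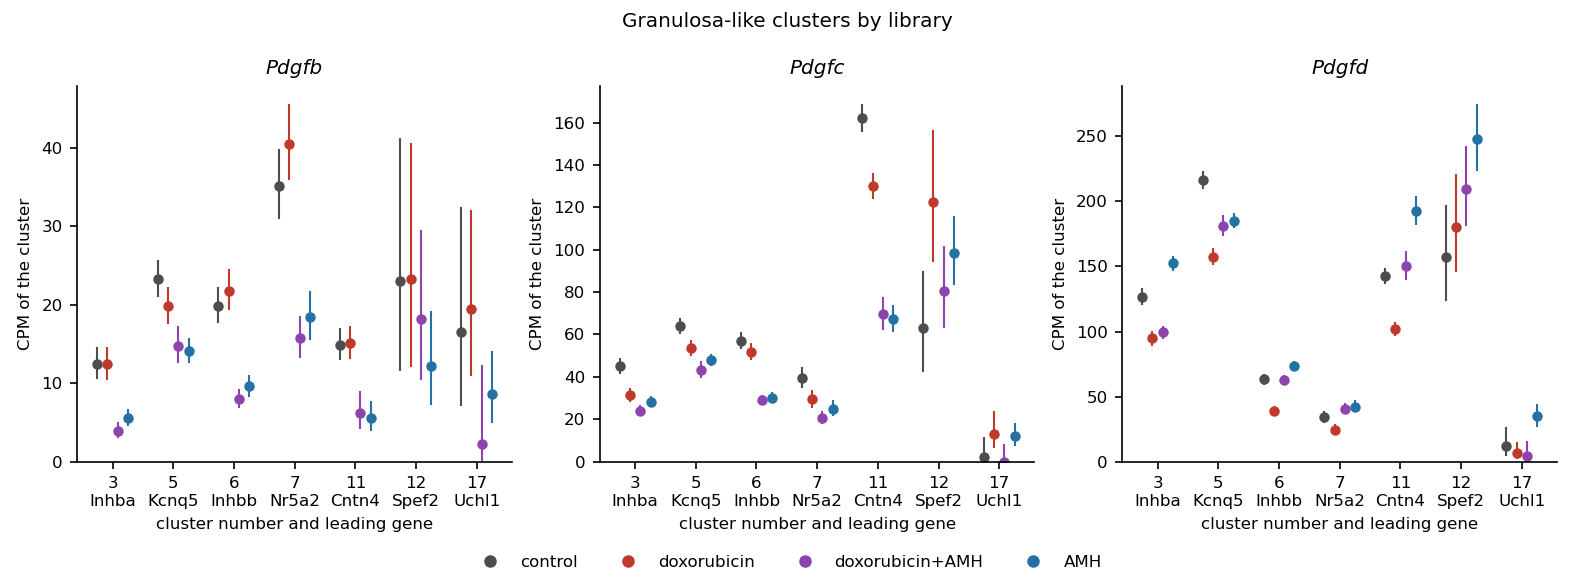
Level of Pdgfb, Pdgfc and Pdgfd (CPM of the cluster, linear axis) in 7 granulosa-like clusters, numbered and with their leading gene, with 1 point per library and bars for the exact Poisson 95% interval. In the cluster led by Cntn4 Pdgfc was 162 and 130 CPM in the control and doxorubicin libraries and 69.6 and 67.3 CPM in the doxorubicin+AMH and AMH libraries.

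Pdgfd in granulosa-like cells was lower in both libraries with doxorubicin. It held 128 CPM in the control library and 133 in the AMH library, and 90.3 in the doxorubicin library and 96.7 in the doxorubicin+AMH library. Both libraries with doxorubicin lay below both without it, by log2 ratios of -0.51 (-0.56 to -0.46) and -0.46 (-0.50 to -0.41). Neither reached 1.5-fold, a fold passed in either direction by 0.256% and 0.935% of all genes counted there. Within the 7 granulosa-like clusters the ratio was below 0 in 6 for doxorubicin over control and in 7 for doxorubicin+AMH over AMH, with an interval below 0 in 5 and 4. In the AMH contrasts the class ratios were 0.05 and 0.10, while the cluster ratios were above 0 in 6 of 7 in each, with an interval above 0 in 6 (AMH over control) and 4 (doxorubicin+AMH over doxorubicin). Granulosa-like Pdgfa went in opposite directions in the doxorubicin contrasts, at 0.34 (0.23 to 0.44) and -0.45 (-0.56 to -0.33), and its ratios in the AMH contrasts were -0.13 (-0.24 to -0.03) for AMH over control and -0.92 (-1.03 to -0.80) for doxorubicin+AMH over doxorubicin.

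In theca-like cells Pdgfra was higher, and Pdgfd lower, in both libraries with AMH. Pdgfra held 18.0 CPM (16.4 to 19.7) in the control library, 22.9 (20.8 to 25.2) in the doxorubicin library, 95.6 (90.8 to 101) in the doxorubicin+AMH library and 106 (102 to 111) in the AMH library. The values without AMH were within the range of erythroid-like cells, and those with AMH were above it. The log2 ratios were 2.56 (2.42 to 2.72) and 2.06 (1.91 to 2.22) in the AMH contrasts and 0.35 and -0.15 in the doxorubicin contrasts. Pdgfd held 152, 160, 95.9 and 93.6 CPM, with log2 ratios of -0.70 (-0.78 to -0.61) and -0.74 (-0.83 to -0.65). Of all genes counted in theca-like cells, 6.91% and 6.73% were at least 1.5-fold higher and 9.96% and 9.82% lower in the AMH contrasts, a larger share than in granulosa-like or stroma-like cells.

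The theca-like class was not made of the same clusters in these libraries. A cluster led by Cyp17a1, the gene of the androgen-making enzyme, held 83.4% and 77.8% of theca-like cells in the control and doxorubicin libraries and 7.7% and 3.8% in the doxorubicin+AMH and AMH libraries, and a cluster led by Lhcgr, the luteinizing hormone receptor gene, held 3.2%, 3.0%, 76.7% and 84.0%. Cyp17a1 itself held 1935 and 1851 CPM of the class sum without AMH and 327 and 142 CPM with it, the summed theca markers stood at 15660, 14946, 6032 and 4958 CPM and the summed stroma markers at 840, 834, 1697 and 1837 CPM. The third cluster, led by Cyp17a1 with Lhcgr and Sct, held 106 to 110 cells in every library, and was looked at after the class values were seen. Pdgfra there was 65.6, 66.6, 70.8 and 93.7 CPM in the control, doxorubicin, doxorubicin+AMH and AMH libraries. Its ratios were 0.51 (0.24 to 0.79) for AMH over control and 0.09 (-0.21 to 0.39) for doxorubicin+AMH over doxorubicin, so neither reached 1.5-fold. Pdgfd in that cluster had ratios of -0.25 (-0.55 to 0.05) and -0.19 (-0.51 to 0.13). In the larger Cyp17a1 cluster the doxorubicin+AMH over doxorubicin ratio was 1.64 (1.20 to 2.06) for Pdgfra and -0.86 (-1.15 to -0.59) for Pdgfd, where 3.03% of genes were at least 1.5-fold higher and 9.92% lower. How much of the class difference is a different mix of theca-like and stroma-like cells was not tested beyond these values.

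**Figure D3:**
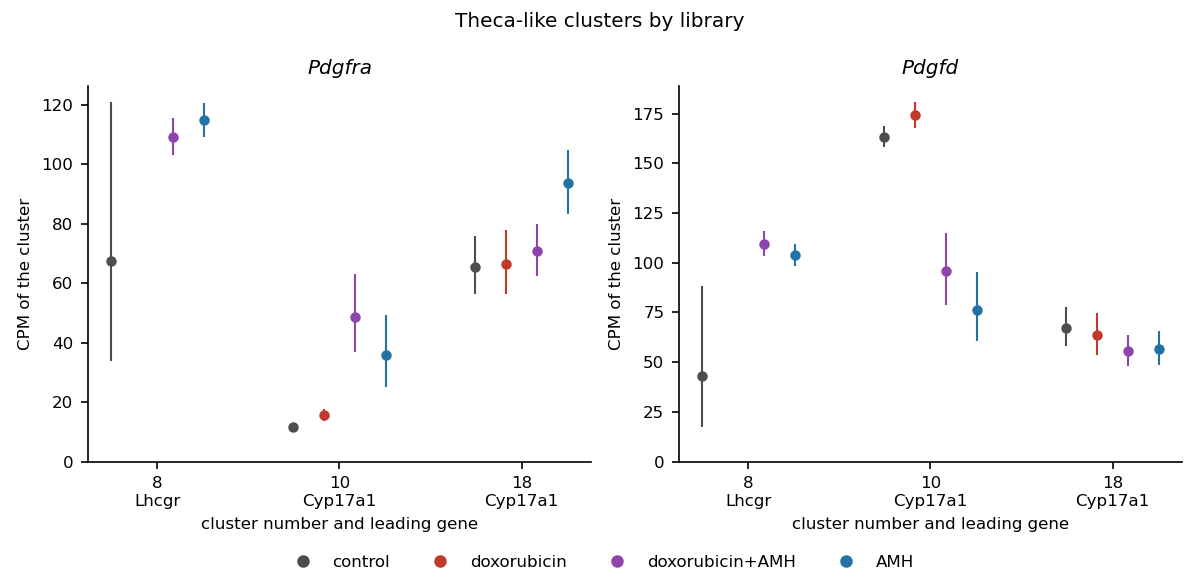
Level of Pdgfra and Pdgfd (CPM of the cluster, linear axis) in the 3 theca-like clusters, with 1 point per library that held at least 20 cells and bars for the exact Poisson 95% interval. In the cluster present at 106 to 110 cells in every library (number 18), Pdgfra lay at 65.6 to 93.7 CPM.

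In the stroma-like class the receptor ratios were small, and each ran the same way in both contrasts of AMH. Pdgfra had log2 ratios of -0.18 and -0.07 in the doxorubicin contrasts and 0.10 and 0.21 in the AMH contrasts. Pdgfrb was -0.02 and -0.02 in the doxorubicin contrasts and -0.44 (-0.52 to -0.36) and -0.44 (-0.52 to -0.37) in the AMH contrasts. Pdgfa was the one stroma pair past 1.5-fold, at 0.62 (0.46 to 0.79) in AMH over control, where 0.375% of all genes counted were higher by that much, and its ratio in doxorubicin+AMH over doxorubicin was 0.14. In doxorubicin over control its ratio was 0.57, just short of the fold. The control library was the lowest, at 17.4 CPM, and the highest library held 28.7 CPM. The AMH over control value lies just past the fold, and was under it in 3 of 14 alternatives, at 0.41 at its lowest.

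Receptor levels also differed between stroma-like clusters. Pdgfra was highest in the cluster led by Frem1, at 434, 457, 474 and 490 CPM in the control, doxorubicin, doxorubicin+AMH and AMH libraries. In the Enpep cluster that also carries the cell division gene Top2a it was 203, 166, 187 and 188 CPM, the lowest of the stroma-like clusters in each library except the doxorubicin library. Pdgfrb in the Frem1 cluster was 92.9, 119, 73.3 and 68.1 CPM in the same order, lower in both libraries with AMH than in both without it. The cluster led by Enpep differed in Pdgfa: 11.2 CPM in the control library against 29.6, 27.8 and 31.9 CPM in the doxorubicin, doxorubicin+AMH and AMH libraries, with log2 ratios of 1.39 (1.02 to 1.78) for doxorubicin over control and 1.51 (1.09 to 1.92) for AMH over control. Of all genes counted there, 0.438% and 0.782% were at least 1.5-fold higher.

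One stroma-like cluster, led by Dpt, Clec3b, C3, Col1a1 and Igfbp3, stood apart in the doxorubicin library, and was singled out after its values were seen. Dpt encodes the matrix protein dermatopontin, and the cluster held 300, 197, 136 and 264 cells in the control, doxorubicin, doxorubicin+AMH and AMH libraries. Pdgfra was 364 CPM (1352 UMIs) in the control library, 138 (436 UMIs) in the doxorubicin library, 314 (483 UMIs) in the doxorubicin+AMH library and 345 (1036 UMIs) in the AMH library. Only the doxorubicin library was low. The log2 ratio was -1.40 (-1.56 to -1.24) for doxorubicin over control and -0.14 (-0.29 to 0.02) for doxorubicin+AMH over AMH, and doxorubicin+AMH exceeded doxorubicin by 1.18 (0.99 to 1.37). In the other 5 stroma-like clusters the doxorubicin over control ratio ran from -0.29 to 0.08, with no interval reaching that of the Dpt cluster.

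The other receptor and the ligand Pdgfa differed in the same cells. Pdgfrb in the Dpt cluster was 81.9, 31.1, 51.4 and 82.7 CPM in the control, doxorubicin, doxorubicin+AMH and AMH libraries, with ratios of -1.40 (-1.74 to -1.06) for doxorubicin over control and -0.68 (-1.07 to -0.31) for doxorubicin+AMH over AMH. Both libraries with doxorubicin were below both without it, the doxorubicin library the furthest. Pdgfa ran the other way, at 19.7, 59.0, 29.3 and 22.0 CPM, a ratio of 1.58 (1.19 to 2.00) for doxorubicin over control and 0.41 (-0.17 to 0.98) for doxorubicin+AMH over AMH. Of the 5 members counted in the cluster, 1 was higher and 2 were lower past 1.5-fold in doxorubicin over control, where 6.6% and 10.9% of all genes were. In doxorubicin+AMH over doxorubicin 2 were higher and 1 lower, against 11.2% and 9.49%. In doxorubicin+AMH over AMH 1, Pdgfrb, was lower, against 3.95%. In AMH over control none of the 5 was past the fold, and 4.64% of all genes were in either direction.

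Depth and stroma markers of the Dpt cluster were measured beside these values. The doxorubicin library had the highest median depth there, 15279 UMIs per cell against 10736 to 11956, and all 8 stroma markers were detected, at a sum of 21622 CPM against 16291 to 24156 in the other libraries. At 2000 UMIs per cell, 52.3%, 22.1%, 36.3% and 43.9% of the cluster's cells held a Pdgfra UMI. Stroma-like cells with at least 1 UMI each of Dpt and Clec3b, of which 69.9% to 90.7% also lay in the cluster, numbered 248, 186, 103 and 218 and held Pdgfra at 330.4, 149, 310 and 345 CPM. Over 9 settings, most of which left nearly the same cells, these cells gave doxorubicin over control ratios of -1.15 to -1.10 for Pdgfra, -0.92 to -0.68 for Pdgfrb and 1.29 to 1.38 for Pdgfa. For doxorubicin+AMH over doxorubicin they gave 1.01 to 1.27 for Pdgfra and -1.54 to -1.05 for Pdgfa, while Pdgfrb, at 0.017 to 0.53, was not past 1.5-fold under any of them. The Pdgfrb ratio of doxorubicin+AMH over AMH was -0.60 to -0.17.

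**Figure D4:**
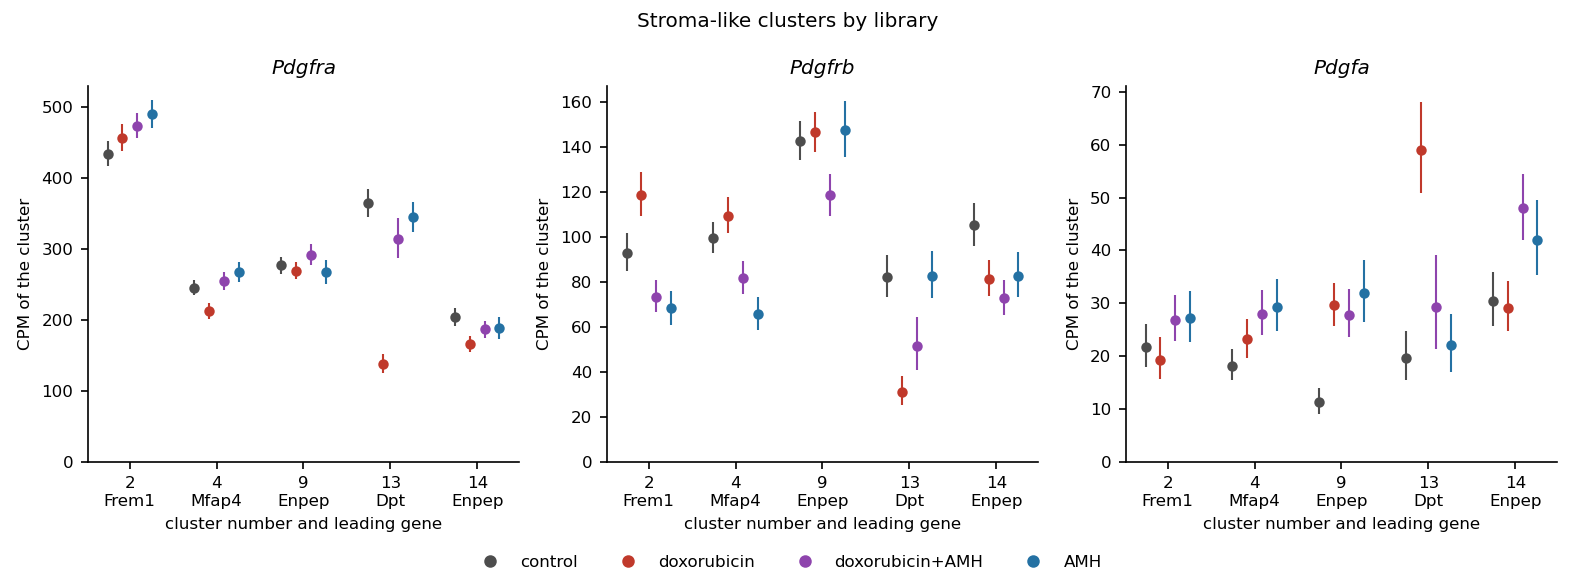
Level of Pdgfra, Pdgfrb and Pdgfa (CPM of the cluster, linear axis) in 5 of the 6 stroma-like clusters, numbered and with their leading gene, with 1 point per library and bars for the exact Poisson 95% interval. In the Dpt cluster the doxorubicin library lies at 138 CPM for Pdgfra against 314 to 364 in the others, and at 59.0 CPM for Pdgfa against 19.7 to 29.3.

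In smooth muscle-like cells Pdgfra was highest in the AMH library. It held 60.2, 75.5, 85.2 and 96.7 CPM in the control, doxorubicin, doxorubicin+AMH and AMH libraries, the control library being the lowest. The AMH over control ratio was 0.68 (0.55 to 0.82), in a class where 0.369% of all genes were at least 1.5-fold higher, and the doxorubicin+AMH over doxorubicin ratio was 0.17. The class mix differed between libraries: a cluster led by Cnn1, with Pdgfra at 14.3 to 23.0 CPM, made up 22.5% and 20.9% of the class in the control and AMH libraries and 3.9% and 7.67% in the doxorubicin and doxorubicin+AMH libraries. The larger cluster, led by Myh11, held Pdgfra at 74.8, 77.6, 89.6 and 119 CPM. Its ratios were 0.67 (0.53 to 0.81) for AMH over control, 0.05 (-0.11 to 0.21) for doxorubicin over control and -0.41 (-0.54 to -0.28) for doxorubicin+AMH over AMH, the last pair being 0.33 and -0.18 in the class. The class ratio of AMH over control ran from 0.35 to 0.74 over 14 alternatives and was past the fold in 10. Pdgfd was lower in the doxorubicin library than in the control library, at -0.64 (-0.86 to -0.42), where 1.97% of genes were, and at -0.26 in the other doxorubicin contrast. Over 14 alternatives the first ratio ran from -0.66 to -0.021, the latter with finer clustering, and stayed past the fold in 9.

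Pericyte-like cells rest on 67 to 119 cells per library, and their ratios have wide intervals. Pdgfrb, the defining receptor, was slightly lower in both doxorubicin contrasts, at -0.26 (-0.45 to -0.08) and -0.27 (-0.52 to -0.03), and -0.09 and -0.10 in the AMH contrasts. Pdgfd was lower in both AMH contrasts, at -1.09 (-1.69 to -0.52) and -0.76 (-1.30 to -0.25), where 10.7% and 10.3% of all genes were at least 1.5-fold lower. Over 14 alternatives the first ran from -1.31 to -0.17 and lost the fold in 2 (doublets left in, each cell weighted equally), and the second turned to 0.92 with each library clustered alone. Pdgfra was 46.3, 17.5, 80.1 and 53.7 CPM, lowest in the doxorubicin library at 18 UMIs, with ratios of -1.40 (-2.25 to -0.63) for doxorubicin over control and 2.19 (1.41 to 3.05) for doxorubicin+AMH over doxorubicin. These 2 share the doxorubicin library, and 5.72% and 6.79% of genes were past the fold that way. With each library clustered alone they became 0.36 and 0.019, and over 14 alternatives they stayed past the fold in 11 and 13. Summed stroma markers in pericyte-like cells moved alongside, at 2461, 2108, 3037 and 3011 CPM, and their part in the Pdgfra ratio was not tested.

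In blood endothelial-like cells Pdgfb, the pericyte-recruiting ligand, was lower in both AMH contrasts, at -0.48 (-0.70 to -0.26) and -0.52 (-0.85 to -0.21), short of 1.5-fold. Its ratios in the doxorubicin contrasts were -0.06 and -0.10. Pdgfrb in these cells was 44.1, 37.5, 62.9 and 60.3 CPM, with ratios of 0.45 (0.12 to 0.78) and 0.75 (0.28 to 1.20) in the AMH contrasts; 3.85% of genes were at least 1.5-fold higher in the second. With doublets left in the second became -0.044. Summed pericyte markers in the same cells stood at 662, 683, 872 and 856 CPM, higher in both libraries with AMH, and their part in the Pdgfrb ratio was not tested. Erythroid markers in them summed to 6080 CPM in the doxorubicin+AMH library and to 17 to 381 CPM in the others, and that library held 65 of these cells.

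Macrophage-like cells gave 3 member ratios past the fold, all on small counts. Pdgfa held 24.9, 20.7, 27.4 and 50.9 CPM, and the AMH library, on 85 UMIs, lay above the others. Its ratios were 1.03 (0.48 to 1.61) for AMH over control and -0.89 (-1.55 to -0.27) for doxorubicin+AMH over AMH, where 4.53% and 9.43% of genes were past the fold that way. Pdgfb was -0.75 (-1.38 to -0.15) in doxorubicin over control, on 30 against 105 UMIs, where 7.8% of genes were. The first of these ratios stayed past the fold in 14 of 14 alternatives, the second in 12 and the third in 11, each of the latter being -0.42 at its weakest. Summed stroma markers in macrophage-like cells were also highest in the AMH library, at 521 CPM against 221 to 323.

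The rest of the pathway was read from 54 genes in 4 lists: 9 for processing, co-receptors and binding, 20 for adaptors, kinases and effectors, 13 for dampers of the receptors and 12 for growth factor response genes. In granulosa-like cells 4, 15, 8 and 9 genes of these lists were counted, and none was past 1.5-fold in any of the 4 contrasts. Few genes were at all: 0.256% and 0.935% in either direction in the doxorubicin contrasts and 2.93% and 3.71% in the AMH contrasts. In stroma-like cells 8, 18, 11 and 9 were counted. None was past the fold in the doxorubicin contrasts, where 0.495% and 0.75% of all genes were. In AMH over control the co-receptor gene Nrp1 and the damper gene Spry1 were lower, both at -0.59, where 0.915% of all genes were, and in doxorubicin+AMH over doxorubicin Ier3 was higher at 0.59, where 0.27% were. All 3 lie at the edge of the fold. In smooth muscle-like cells Nrp1 was lower along both axes, at 103, 48.5, 24.8 and 59.6 CPM in the control, doxorubicin, doxorubicin+AMH and AMH libraries. Its ratios were -1.09 and -1.26 in the doxorubicin contrasts, where 1.97% and 1.52% of all genes were at least 1.5-fold lower, and -0.80 and -0.97 in the AMH contrasts, where 0.876% and 0.553% were. Lower in both contrasts of a pair were 1.01% (doxorubicin) and 0.169% (AMH) of all genes. Pik3r1, a regulatory subunit of PI3K, was lower in both doxorubicin contrasts there, at -0.62 and -0.66. Within the Myh11 cluster neither gene was past the fold in a doxorubicin contrast, while Nrp1 was lower past it in both AMH contrasts.

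Pericyte-like cells, the class with the highest Pdgfrb, had 5 listed genes past the fold in both contrasts of a pair, out of 7, 18, 11 and 10 counted in the lists. They were 1 higher and 2 lower in both doxorubicin contrasts, where 0.617% of all genes were higher and 1.0% lower in both, and 2 lower in both AMH contrasts, where 2.27% of all genes were. Plcg1, the gene of a phospholipase that binds the activated receptor, had ratios of 0.97 (0.03 to 1.94) and 1.00 (-0.13 to 2.21) in the doxorubicin contrasts, on 11 to 26 UMIs per library. Pcsk7, a proprotein convertase gene, had -0.91 (-1.70 to -0.17) and -0.73 (-1.55 to 0.06) and the adaptor gene Crkl -0.60 (-1.60 to 0.35) and -0.91 (-1.91 to 0.02), so 4 of these 6 intervals reach 0. In the AMH contrasts the cyclin gene Ccnd1 was lower at -0.91 (-1.36 to -0.47) and -0.88 (-1.39 to -0.39) and Spry4, a feedback inhibitor of receptor tyrosine kinase signalling, at -1.25 (-1.98 to -0.58) and -0.79 (-1.48 to -0.14). In theca-like cells, which lead no member, Plau, the gene of the plasminogen activator urokinase, was higher in the AMH contrasts at 1.20 and 1.89. It held 12.6, 11.6, 42.9 and 28.9 CPM in the control, doxorubicin, doxorubicin+AMH and AMH libraries. It thus passed the limit of 20 CPM only through the libraries with AMH, where it was high. The response genes Ier3, at 1.11 and 1.19, and Nr4a1, at 0.70 and 0.71, were also higher in the AMH contrasts. Nrp1 was lower, at -0.99 and -0.60. In both AMH contrasts 4.86% of all genes in theca-like cells were at least 1.5-fold higher and 7.63% lower. These theca genes were chosen after their values were seen, and the change of clusters described for theca-like cells applies to them too. Macrophage-like cells, which also lead no member, had Sparc lower in both doxorubicin contrasts, at -1.61 and -0.99. Dusp6 was lower there in both AMH contrasts, at -1.20 and -0.96. Pik3r1 was lower there in both pairs, at -0.62 and -0.70 and at -0.65 and -0.72. Blood endothelial-like cells had no listed gene past the fold in both contrasts of a pair.

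In the Dpt cluster 5 response genes and 4 adaptor genes were at least 1.5-fold lower in the doxorubicin library than in the control library. Of 10 response genes counted, 5 were at least 1.5-fold lower in doxorubicin over control and none was higher, with a median of -0.47 against -0.07 over all genes, of which 10.9% were lower by that much. They were Fos (-0.66), Egr1 (-0.63), Junb (-0.78), Ier2 (-0.68) and Ier3 (-0.81), all immediate early genes. Of 16 adaptor genes counted, 4 were lower by that much in the same contrast, beside the 10.9% of all genes. Among them was Vav3, a guanine nucleotide exchange factor gene, at 101, 10.2, 52.1 and 73.3 CPM in the control, doxorubicin, doxorubicin+AMH and AMH libraries. Of the dampers, Spry1 was 52.8, 10.2, 21.5 and 44.3 CPM, and the receptor phosphatase gene Ptprj was 16.7, 48.2, 16.9 and 14.0 CPM. Ptprj passed the limit of 20 CPM only through the doxorubicin library, where it was high, so its higher value there is no independent result. Of 6 processing and co-receptor genes counted, Nrp1 was lower in both doxorubicin contrasts, at 280, 161, 97.0 and 217 CPM, ratios of -0.80 (-0.95 to -0.64) and -1.16 (-1.43 to -0.90), so it was low in both libraries with doxorubicin. In doxorubicin+AMH over AMH 1 of the 10 response genes was past the fold, Has2, which was higher at 0.70. Immediate early genes also respond to tissue dissociation, whose part was not tested.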

How the data were processed

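Ovaries of 4 groups of mice were dissociated with papain and collagenase A and run on the 10x Genomics Chromium 3′ assay, 1 library per group, per the labels' protocols. As deposited, each library is a sparse table of whole UMI counts that the authors left unnormalized; Cell Ranger 7.0.0 is named per the file headers, and the submitters' processing notes also name mm10, R 4.2.0 and Seurat 4.1.0. Further counting settings are not given in the sources used here.

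Deposited cells numbered 9202 (control), 7141 (doxorubicin), 7818 (doxorubicin+AMH) and 9478 (AMH), with 138647495 to 178279122 UMIs per library. Kept cells had 1000 or more UMIs with no more than 20% of them mitochondrial. Doublets were removed as the highest Scrublet scores at 0.8% of cells per 1000 cells (408 to 719 cells per library), since Scrublet's automatic threshold marked 0 and 1 cells in 2 libraries. The 4 libraries were clustered together (scanpy 1.11.5; 2000 variable genes, 30 principal components, 20 neighbours, Leiden resolution 1.0) without the members, the pathway lists and mitochondrial genes. Of 33 clusters, 31 were named from marker lists into 13 classes, and the 7 classes with at least 50 cells in every library were compared. No deposited cell annotation was used.

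UMIs were summed per class and library. A level is CPM with an exact Poisson interval, a share of cells has an exact Clopper-Pearson interval, and a ratio is a log2 ratio of CPM without pseudocount with an exact conditional binomial interval, all at 95%. Only the ratio interval was tried on simulated data, in stroma-like, granulosa-like and pericyte-like cells. The simulated counts were Poisson, as the interval itself assumes, so the trial cannot say how it covers counts of wider spread. A gene was counted in a class where its 4 libraries averaged 20 CPM or more, and the fold threshold was 1.5. Shares of cells were compared after thinning each cell to 2000 UMIs, leaving out shallower cells. Computation used Python 3.11.15, numpy 2.4.6 and scipy 1.17.1.

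Named were all members, the 3 genes most correlated with each, and, in classes leading a member, listed pathway genes past the fold in the same direction in both contrasts of a pair sharing no library, at most 3 per direction. Pathway genes of stroma-like, theca-like and macrophage-like cells and of the Dpt cluster were named outside this rule, after their values were seen. The members and lists were chosen with earlier results of these data known. Alternatives covered scaling, cell weighting, doublets, UMI and mitochondrial limits, clustering, marker gating, the filter, a pseudocount of 5 CPM and thinning; leaving out clusters of uneven share or of few UMIs, and the cells with Dpt and Clec3b UMIs, were added after seeing the data. The separate values of 1 stroma-like cluster are not reported here.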

Additional observations from a re-analysis of the deposited data

How the results depend on the processing

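Over the alternatives, 1220 values of the member ratios lay within the main counting interval and 121 outside it, and 3 more, of ratios past 1.5-fold, changed sign, as did 65 values of ratios not past it. Pericyte-like Pdgfra in doxorubicin over control became 0.36 and pericyte-like Pdgfd in doxorubicin+AMH over doxorubicin became 0.92 when each library was clustered alone, which left 48 pericyte-like cells in the smallest library; blood endothelial-like Pdgfrb in doxorubicin+AMH over doxorubicin became -0.044 with doublets left in. The causes were not tested. Some alternatives could not move a ratio, and their values are among the 1220. Dropping the filter changed only which pairs were counted. Leaving out clusters of uneven share or of few UMIs changed no ratio of stroma-like, pericyte-like or blood endothelial-like cells, which held no such cluster. The counts of alternatives given for each ratio include these settings. Without the 20 CPM filter, the count of members past 1.5-fold became 8 (doxorubicin over control), 10 (doxorubicin+AMH over AMH), 18 (AMH over control) and 15 (doxorubicin+AMH over doxorubicin), since more pairs were counted. In doxorubicin+AMH over AMH, 1 in the main analysis, it became 4 with doublets left in, 2 with a lower and 3 with a higher UMI minimum per cell, 3 with each library clustered alone, 5 with cells gated by their own markers and 0 with each cell weighted equally. In doxorubicin+AMH over doxorubicin, 7 in the main analysis, marker gating gave 11.

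Granulosa-like Pdgfc stayed past the fold in 14 of 14 alternatives in both AMH contrasts, at -1.47 to -0.62 and -1.31 to -0.69. Theca-like Pdgfra did in 13 of 14, at 0.51 to 2.78 and 0.09 to 2.45, the lowest without the clusters of uneven share, and theca-like Pdgfd in 13 of 14, at -0.71 to -0.25 and -0.85 to -0.19. Smooth muscle-like Pdgfd in doxorubicin over control stayed in 9 of 14 (-0.66 to -0.021), smooth muscle-like Pdgfra in 10 of 14 (0.35 to 0.74), stroma-like Pdgfa in 11 of 14 (0.41 to 0.75) and pericyte-like Pdgfra in doxorubicin over control in 11 of 14 and in doxorubicin+AMH over doxorubicin in 13. Pericyte-like Pdgfd in AMH over control did in 12, and macrophage-like Pdgfa in doxorubicin+AMH over AMH and Pdgfb in doxorubicin over control in 12 and 11. Without thinning, 149 of 168 shares of cells moved beyond their interval. Classes of under 100 cells limit the pericyte, endothelial and macrophage ratios. No paired analysis was possible because each group holds 1 library.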
